A study of Mus musculus with 7 samples.

Results

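The subject here is a set of 10 genes of fibroblast growth factor (FGF) signalling: the receptors Fgfr1, Fgfr2 and Fgfr3, the ligands Fgf1 and Fgf2, the feedback inhibitors Spry1, Spry2 and Spry4, and the transcription factors Etv4 and Etv5. They were picked by gene symbol and not by a cut on measured values, but with earlier results of these data known. Each symbol was found once among the 32285 genes counted. Their counts of unique molecular identifiers (UMIs, tags by which copies of 1 captured mRNA are counted a single time) were followed across 11 cell types in single-cell RNA sequencing of the ventricular-subventricular zone (V-SVZ), the stem cell niche along the lateral ventricles. There were 3 control libraries from Prdm16 flox/flox mice without Cre, 3 Prdm16 cKO libraries from hGFAP-Cre+/-; Prdm16 flox/flox mice, and 1 Prdm16-Vcam1 DKO library from hGFAP-Cre+/-; Prdm16 flox/flox; Vcam1 flox/flox mice. All mice were 31 to 33 days old, and each library pooled the tissue of 2 to 3 mice of 1 genotype. The human GFAP promoter drives Cre in radial glia and astrocytes, so cells of other origin are not expected to lose the floxed alleles. Since every knockout library carries Cre and no control library does, effects of the transgene and of the deletion cannot be told apart.

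FGF ligands bind receptor tyrosine kinases at the cell surface together with heparan sulphate, and the receptors signal through the Ras-ERK cascade. ERK activity switches on Etv4 and Etv5, ETS family factors that carry out part of the response, and the Sprouty genes, whose products restrain the same cascade as negative feedback. In the V-SVZ, FGF2 is a standard mitogen for cultured neural stem cells, and FGFR3 is a familiar marker of astrocytes. Sprouty and Etv transcription also answers other receptor tyrosine kinases, so a level of these genes does not name the ligand.

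Cells with 500 to 7000 detected genes and at most 10% mitochondrial counts were kept, which left 1868 to 9502 cells per library and 43346 in all, from libraries of 45758003 to 141353017 UMIs. The cells were clustered without the 10 genes, and 11 clusters with 37496 cells were named from marker genes. The NSC-like cluster carried 7 of 9 NSC markers, Gfap, Thbs4 and Vcam1 among them, but also 7 of 8 astrocyte markers, so the line between neural stem cells (NSCs) and astrocytes is not sharp in these data. The remaining 5850 cells, 5.41% to 32.9% of a library with the most in control library 2, stayed unnamed. Between pairs of libraries, 2 to 70 cell barcodes were shared, at most 1.48% of the smaller library. In NSC-like cells, cKO library 1 lay closer to the control mean (root mean square difference of 0.30 on the log2 scale over 7833 genes) than cKO libraries 2 and 3 (0.59 and 0.58), and the 3 control libraries lay at 0.21 to 0.23. A sign of quality ran the same way: the limits on cells kept 49.8% and 47.2% of the barcodes of cKO libraries 2 and 3, against 70.2% to 74.7% in the 5 other libraries. The shallow unnamed cluster with haemoglobin, NSC and astrocyte genes took 10.5% and 14.8% of their cells, against 2.61% to 7.95% elsewhere. Another sign ran otherwise: the share of cells with at most 5% mitochondrial counts was lowest of all 7 libraries in cKO library 1 in several types. It was 33.6% there in astrocyte-like, 23.2% in ependymal-like, 36.9% in mural-like and 77.6% in neuroblast-like cells. In NSC-like cells the share was 53.3% to 76.6% in controls, 40.7% to 56.7% in cKO and 88.3% in DKO. The part of these signs in the values below was not tested. Fold changes without cKO library 1 are therefore given beside the comparisons below. That library was singled out from these same values, and without it the cKO group is libraries 2 and 3, with fewer barcodes kept. In NSC-like cells edgeR's test called 26 genes with all libraries, 1663 without cKO library 1 and at most 1 without another library. More calls without it thus follow in part from the choice and are no separate support. Prdm16 was present at 49.2 to 54.8 CPM in NSC-like cells of the cKO libraries against 60.3 to 69.8 in controls, but gene counts do not show whether the floxed exon is missing. Prm1, a protamine gene whose end commonly follows Cre in transgenes, had 0 UMIs in NSC-like cells of the controls and 152, 327 and 463 CPM in cKO libraries 1 to 3, with 168 CPM in the DKO library. Vcam1 was at 111 to 141 CPM in control, 150 to 187 in cKO and 91.1 in DKO NSC-like cells. Its log2 fold change in cKO against control was 0.47 and was not called (adjusted p = 0.210 in edgeR's test). The groups did not overlap for 18.4% of all genes tested there. The paper reported more Vcam1 protein in cKO but no significant difference in Vcam1 mRNA, by single-cell sequencing or by in situ hybridization (RNAscope). The p-values here and below measure the spread between these pooled libraries.

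Levels are given as UMIs of a gene per 1000000 UMIs (CPM) of the summed cells of a type in a library, scaled by the trimmed mean of M-values (TMM). Each is given as mean ± SD over the 3 control libraries, and the spread covers libraries, not single mice. The order of cell types is a description with no test, because the types were defined on the same cells. In a sum over cells, fewer expressing cells and less RNA per cell cannot be told apart.

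Among the receptors, Fgfr3 had the steepest profile across glia. Fgfr3 (chromosome 5, 33721674 to 33737068 in GRCm38) stood at 452, 408 and 355 CPM in astrocyte-like cells of control libraries 1, 2 and 3, and at 119, 118 and 95.3 CPM in NSC-like cells. The means were 405 ± 48.6 and 111 ± 13.3 CPM (SD, n = 3), a ratio of 3.66, and ependymal-like cells followed at 53.3 ± 2.88 CPM. The libraries of these 3 types did not overlap with each other, and all other types had means of 10.7 CPM or less. Next in order, TAP-like cells (transit amplifying precursors, the dividing progeny of NSCs) and endothelial-like cells, overlapped at 10.2 to 11.5 and 5.45 to 15.3 CPM. In neuroblast-like cells, the migrating young neurons, Fgfr3 was lowest at 2.92 CPM.

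Fgfr1 (chromosome 8, 25513654 to 25575718) was highest in astrocyte-like and ependymal-like cells. It measured 149, 129 and 160 CPM in astrocyte-like cells and 127, 136 and 136 CPM in ependymal-like cells of control libraries 1 to 3, ranges that overlap. NSC-like cells came next at 89.9 ± 5.58 CPM and overlapped with mural-like cells, the pericytes and smooth muscle of vessels, at 74.9 ± 13.4 CPM. The 7 other types had means of 7.48 to 24.2 CPM, lowest in oligodendrocyte-like cells. Along the neurogenic lineage the means went from 89.9 CPM in NSC-like to 19.7 in TAP-like and 8.72 in neuroblast-like cells.

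Fgfr2 (chromosome 7) had its peak elsewhere, in myelinating cells. Oligodendrocyte-like cells held 193, 216 and 214 CPM in control libraries 1 to 3, from 10292 UMIs. Astrocyte-like and NSC-like cells overlapped at 84.0 ± 4.74 and 81.8 ± 4.88 CPM, all below the oligodendrocyte-like libraries. Ependymal-like cells (53.6 ± 4.93 CPM) overlapped with oligodendrocyte precursor (OPC)-like cells (40.8 ± 12.9 CPM). So oligodendrocyte-like cells were at the top for Fgfr2, at the bottom for Fgfr1 and second from the bottom for Fgfr3. The GENCODE interval of Fgfr2, 130162451 to 133123350, spans 69 other annotated genes, and the genes' exons rather than the interval decide which reads are counted.

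The ligands differed in where they were found. Fgf1 (chromosome 18, 38838673 to 38929472), which binds all FGF receptors, had its means in oligodendrocyte-like (82.1 ± 11.5 CPM), astrocyte-like (80.0 ± 14.5 CPM) and mural-like cells (62.8 ± 15.1 CPM) within reach of each other, and neighbouring ranges overlapped. NSC-like cells followed at 26.6, 28.2 and 27.2 CPM and ependymal-like cells at 18.6, 20.0 and 18.2 CPM, tight values that stood apart from the types above and below. TAP-like, neuroblast-like and neuron-like cells were at 1.52 to 1.97 CPM, so Fgf1 was nearly missing from the neurogenic lineage beyond the NSC-like cells.

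Fgf2 (chromosome 3, 37348346 to 37410108), the stem cell mitogen, was sparse in all types. Its means were 11.6 ± 2.94 CPM in mural-like, 11.1 ± 1.27 in NSC-like, 8.73 ± 2.43 in astrocyte-like and 5.04 ± 1.77 in ependymal-like cells, and each overlapped with the next. The NSC-like value rests on 264 UMIs and the mural-like value on 32. In TAP-like and neuroblast-like cells the means were 0.48 and 0.30 CPM. The gene Nudt6 overlaps its end on the opposite strand (chromosome 3, 37404910 to 37420211) and was at 4.59 to 5.81 CPM in NSC-like cells of the controls, but whether reads were assigned between both by strand was not checked.

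The Sprouty genes split into a vascular and OPC pair and a broad member. Spry1 (chromosome 3, 37639947 to 37644598) stood at 214, 186 and 145 CPM in mural-like cells of control libraries 1 to 3, above all other types. OPC-like cells (92.8 ± 36.5 CPM) and endothelial-like cells (67.6 ± 10.8 CPM) overlapped, and microglia-like cells held 32.3 ± 11.4 CPM. Astrocyte-like cells were lowest, with 4 UMIs in the 3 libraries together (0.50 CPM), and NSC-like cells had 2.38 CPM.

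Spry4 (chromosome 18, 38586247 to 38601415) shared the first 2 places, with 112 ± 17.2 CPM in mural-like and 54.2 ± 3.37 CPM in OPC-like cells. These did not overlap with each other or with endothelial-like (13.02 ± 0.950 CPM) and astrocyte-like cells (12.7 ± 2.08 CPM), which did overlap. NSC-like cells were at 3.04 CPM, and ependymal-like cells were lowest at 0.40 CPM from 7 UMIs.

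Spry2 (chromosome 14, 105891947 to 105896819) was at 9.60 CPM or more in every type. Astrocyte-like (128 ± 47.6 CPM), mural-like (108 ± 46.4), NSC-like (72.6 ± 24.6) and neuron-like cells (71.2 ± 18.9) formed a chain of overlapping neighbours. The spread ran along libraries. Control library 3 was the lowest of the 3 controls in 11 of 11 types and control library 2 the highest in 8, and among cKO libraries number 2 was the highest in 9 of 11 types. In NSC-like cells Spry2 measured 67.3, 99.3 and 51.1 CPM in control libraries 1 to 3 and 53.9, 120 and 72.6 CPM in cKO libraries 1 to 3. Within a cell type, any difference between genotypes smaller than this spread between libraries was not detectable for Spry2. This does not cover the comparison of changes between types below, which has a term per library.

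Etv4 and Etv5 overlapped in astrocytes and OPCs and parted in microglia. Etv4 (chromosome 11, 101769742 to 101785371) was at 39.5 ± 14.8 CPM in astrocyte-like and 33.4 ± 11.3 CPM in OPC-like cells, which overlapped. The next type, NSC-like, had 4.45 CPM, a ratio of 7.50 below OPC-like cells. Mural-like cells held 0 UMIs of Etv4 in all 7 libraries, which allows a level of up to 0.531 CPM (3 counts of the summed total, counting error only), in the type where Spry1 and Spry4 were highest.

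Etv5 (chromosome 16, 22381309 to 22439719) was highest in microglia-like cells, at 66.0, 92.4 and 75.2 CPM in control libraries 1 to 3. Astrocyte-like (52.3 ± 10.5 CPM) and OPC-like cells (43.5 ± 1.54 CPM) overlapped, and neuron-like cells followed at 29.33 ± 5.997 CPM. NSC-like cells had 11.98, 12.6 and 11.7 CPM, close to TAP-like (14.02 ± 5.14 CPM) and neuroblast-like cells (10.6 ± 2.13 CPM). Ependymal-like cells, high in Fgfr1, were lowest in Etv5 (1.18 CPM).

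**Figure D1:**
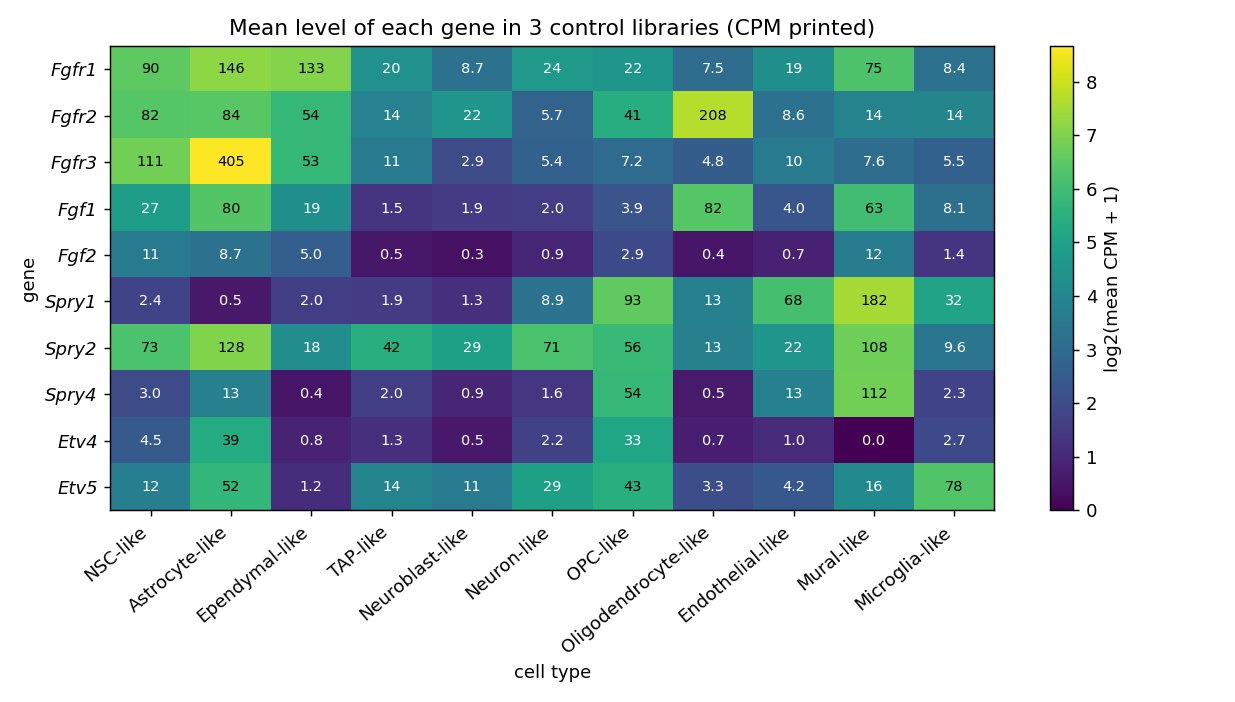
Mean level of each of the 10 genes (rows) in each of 11 cell types (columns) over the 3 control libraries; colour is log2(mean CPM + 1) and the printed number is the mean CPM. Fgfr3 peaks in astrocyte-like cells at 405 CPM, Fgfr2 in oligodendrocyte-like cells at 208, Spry1 and Spry4 in mural-like cells at 182 and 112, and Etv5 in microglia-like cells at 77.9.

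Across the 11 types, the log2(mean CPM + 1) of Fgfr1 had a Pearson r of 0.83 with Fgfr3 and 0.87 with Fgf2, Spry1 had 0.68 with Spry4, and Etv4 had 0.61 with Etv5. These describe 11 points that share their libraries and their depth. Etv5 had an r of 0.03 with Fgfr3 and -0.08 with Fgfr1, while Etv4 had 0.52 with Fgfr3 and Spry2 had 0.62 with Fgfr1 and 0.45 with Fgfr3. Spry1 had an r of -0.51 with Fgfr3, where Spearman's rho was -0.27.

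Among 14024 genes that reached 10 CPM in a type, those with the profile most like each member over the 11 types were named by Pearson r. For Fgfr3 they were Gm6145 (0.99), Ttpa (0.98) and Acsbg1 (0.98), and for Fgfr2 they were Scd2 (0.97), Megf10 (0.93) and Mpst (0.92). For Fgfr1 they were Slc7a2, Rgs6 and Clybl (0.93 to 0.94). Fgf1 was closest to Daam2 (0.95), Fnbp1 (0.91) and Gm15417 (0.91), and Fgf2 to Snhg3 (0.98), Atp1b2 (0.94) and Zbtb7c (0.94). Spry1 was closest to Ext2, Tmem87b and Calcrl (0.90 to 0.94), Spry2 to Igflr1, Tmem136 and 6720427I07Rik (0.93 to 0.96), and Spry4 to C1qtnf6, Ltbp1 and P3h1 (0.90 to 0.92). Etv4 was closest to Hrh1, Fzd9 and Xylt1 (0.91 to 0.93) and Etv5 to Ccdc51, Zfp952 and Gm26917 (0.88 to 0.91). These values are the highest picked from 14024 genes over only 11 points, and they were not tested.

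**Figure D2:**
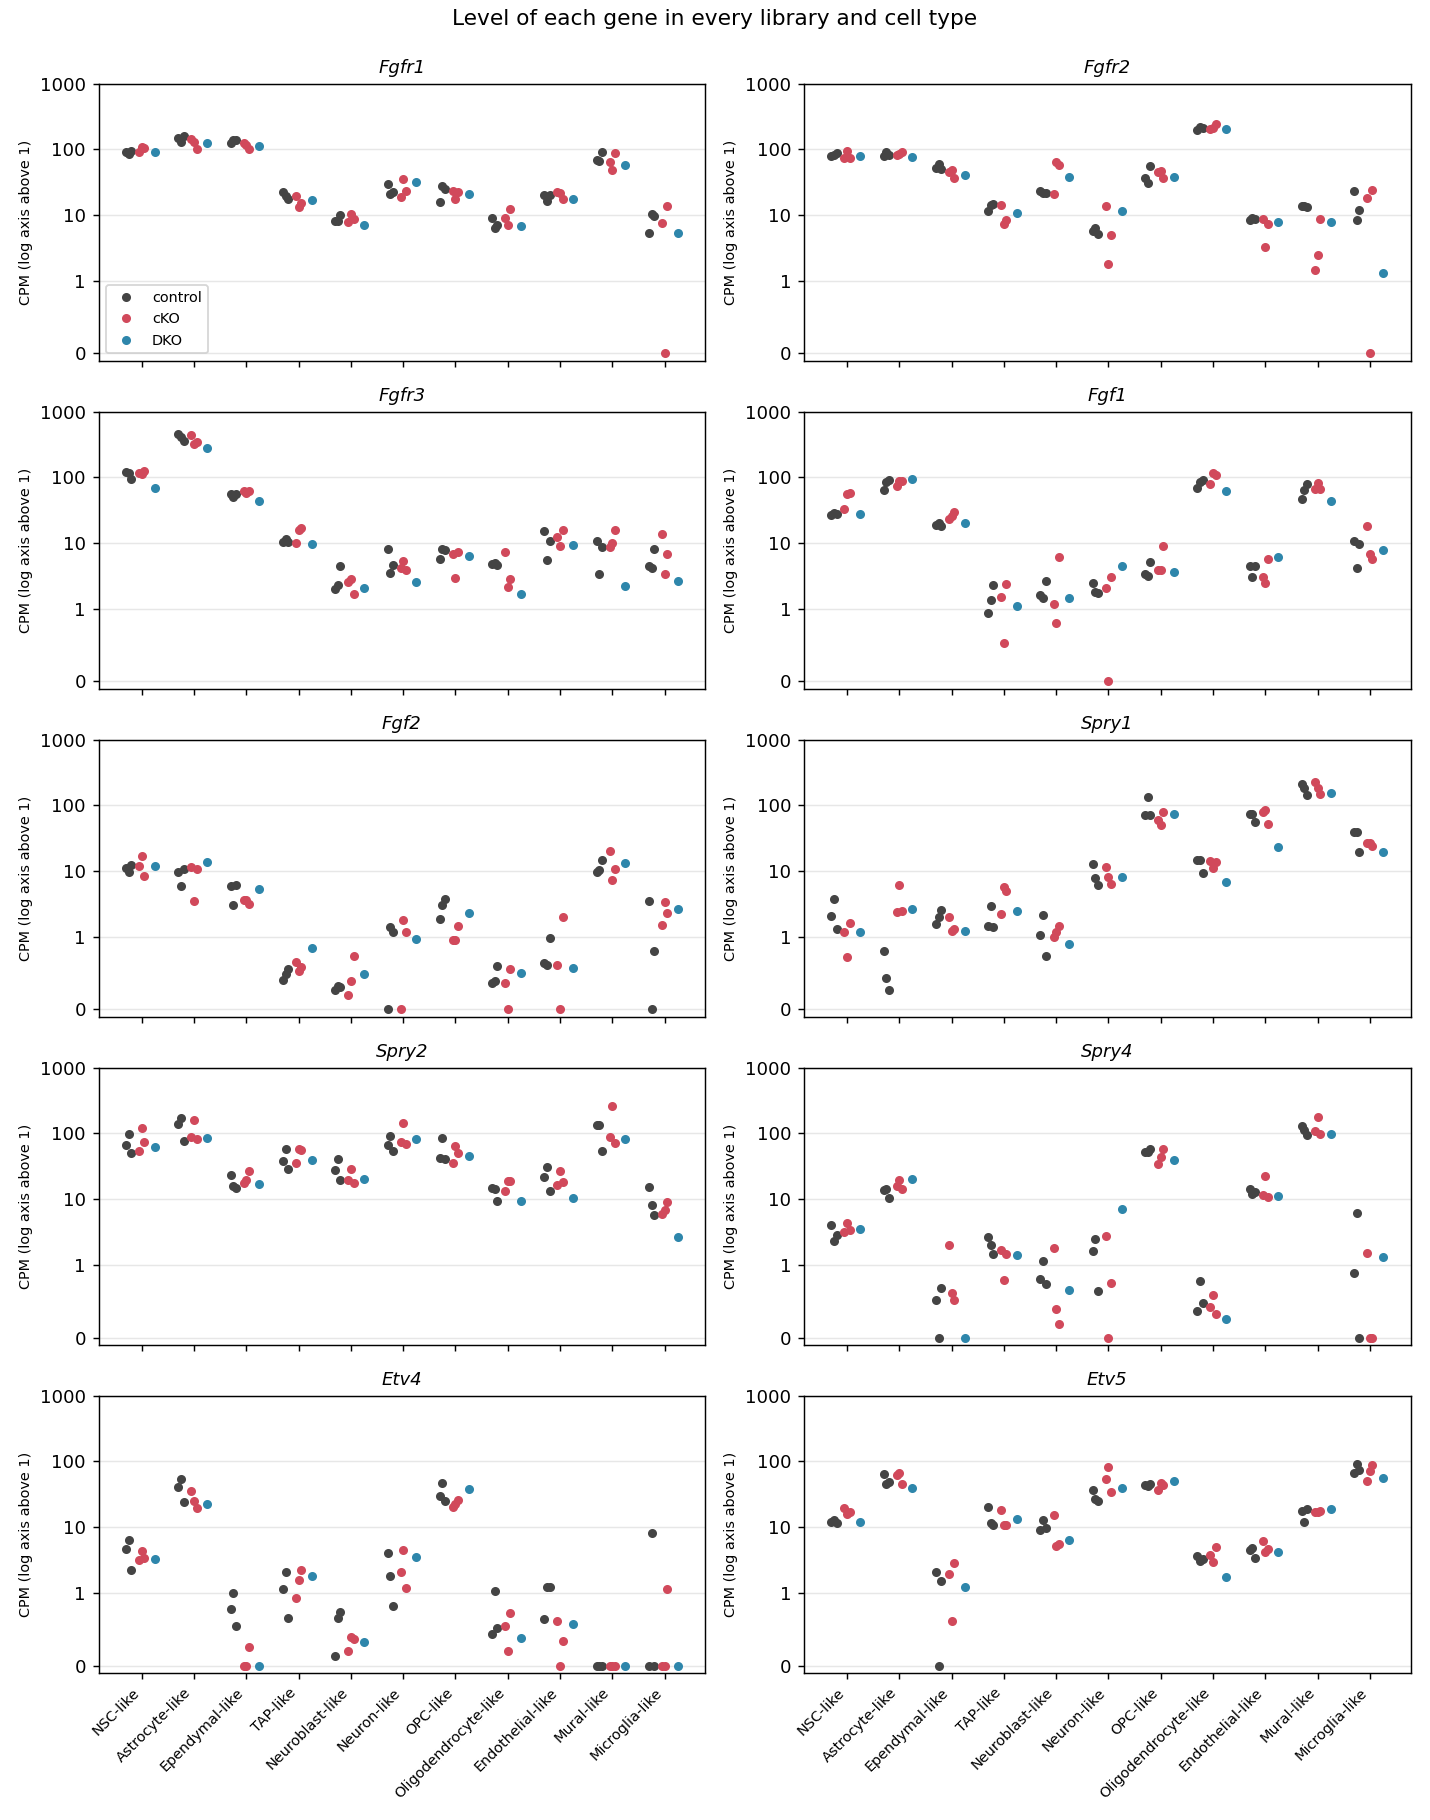
Level of each gene (panels) in every library (points; control grey, cKO red, DKO blue) by cell type, in CPM on an axis that is linear below 1 and logarithmic above. The 3 groups lie on each other in most panels, with Fgf1 in NSC-like cells (26.6 to 28.2 CPM in control, 32.8 to 57.0 in cKO) and Fgfr2 in neuroblast-like cells (21.4 to 23.1 against 20.99 to 63.6) among the exceptions.

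The cKO libraries were next compared with the controls within each cell type, to ask whether loss of Prdm16 in the radial glial lineage goes with a change in this pathway. Of 110 pairs of a gene and a cell type, 90 had enough counts to be tested with edgeR's quasi-likelihood test, adjusted by Benjamini-Hochberg over all genes of the type at a threshold of 0.05. None of the 90 was called, against 0.154% of 139515 gene and type pairs over all genes. At an unadjusted p under 0.05 there were 9 of 90 (background 6.16%), and in 9 of 90 the 3 cKO libraries did not overlap with the 3 controls (background 11.6%). The fold changes were positive in 50 pairs and negative in 40, with a median of 0.04 on the log2 scale.

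In NSC-like cells the FGF ligand Fgf1 had the lowest p of the 10 genes. Fgf1 was at 26.6, 28.2 and 27.2 CPM in control libraries 1 to 3 and at 32.8, 55.6 and 57.0 CPM in cKO libraries 1 to 3, so every cKO library was above every control. The means were 27.3 ± 0.83 and 48.5 ± 13.6 CPM (SD, n = 3), and the fitted log2 fold change was 0.82 ± 0.205 (SE) with an adjusted p of 0.0955 in edgeR's quasi-likelihood test. It thus missed the threshold, in a type in which 0.179% of 14494 genes were called and the groups did not overlap for 18.4%.

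The call on Fgf1 turned on the settings. Without cKO library 1 the log2 fold change was 1.05 (adjusted p = 3.48e-04 in edgeR's test, 11.4% of all genes were called). DESeq2 gave an adjusted p of 0.0273 (3.89% of genes called), edgeR without a filter on low counts 0.00527 (2.43%) and edgeR on the control and cKO libraries alone, with the replicate number as a block, 0.0294 (4.08%), where the same libraries without the block gave 0.117. The labels tie equal replicate numbers to nothing shared. With at most 5% mitochondrial counts the log2 fold change was 0.78 (adjusted p = 0.249), and cKO library 1, at 26.9 CPM, lay within the controls at 26.1 to 28.8 CPM, apart from cKO libraries 2 and 3 at 63.2 and 52.7 CPM. With cell types set by a gate on single-cell marker scores instead of clusters, the log2 fold change was 0.39 (adjusted p = 0.629 in edgeR's test). There cKO library 3 alone, at 54.4 CPM, lay above the range of the other 5, 28.1 to 35.0 CPM. The gate held 859, 293 and 935 NSC-like cells in control libraries 1 to 3, beside 1139, 442 and 1314 by clusters. In cKO libraries 1 to 3 it held 637, 124 and 272, beside 904, 214 and 670. Astrocyte-like cells numbered 684, 318 and 747 in controls with the gate, beside 408, 224 and 477. In cKO they numbered 687, 229 and 657, beside 393, 88 and 279. The part of this shift was not tested. With NSC-like and astrocyte-like cells summed, the log2 fold change was 0.46 (adjusted p = 0.318).

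Within the cKO group, the order of the astrocyte marker sums in these NSC-like cells was that of Fgf1, but not within the controls. Their summed level over 8 genes was 1723 to 1822 CPM in controls and 1979, 2550 and 2757 CPM in cKO libraries 1 to 3, with 3 of the 8 higher in the cKO mean and none at 0. In the DKO library the sum was 2009 CPM, above cKO library 1, while its Fgf1, at 28.0 CPM, was within the controls. Fgf1 itself was 80.0 CPM in astrocyte-like control cells against 27.3 CPM in NSC-like ones. NSC markers summed to 5109 to 5872 CPM in controls and 5920, 6913 and 7304 CPM in cKO libraries, with 6 of 9 higher. Markers of the other types with high Fgf1 overlapped between the groups, at 887 to 1269 and 707 to 1299 CPM for oligodendrocyte and 104 to 148 and 87.3 to 120 CPM for mural markers. What part the astrocyte transcripts have in the Fgf1 values was not tested.

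The ETS factor Etv5 was the other member apart in NSC-like cells. It measured 11.98, 12.6 and 11.7 CPM in control libraries 1 to 3 and 19.8, 15.9 and 17.1 CPM in cKO libraries 1 to 3. Here cKO library 1 was the highest, unlike for Fgf1. The log2 fold change of 0.55 ± 0.185 (SE) had an adjusted p of 0.199 in edgeR's test and stayed uncalled under every alternative tried. A limit of at most 5% mitochondrial counts kept 53.3% to 76.6% of NSC-like cells in controls, 40.7% to 56.7% in cKO and 88.3% in DKO. Under that limit the log2 fold change was -0.028. There cKO library 2 was at 5.34 CPM from 6 UMIs, and the other libraries were at 11.2 to 15.6 CPM. Without cKO library 1 the log2 fold change of Etv5 was 0.46 (adjusted p = 0.217 in edgeR's test), and with NSC-like and astrocyte-like cells summed it was 0.33. With the gate the groups stayed apart, at 12.4, 8.28 and 14.3 CPM in controls and 19.6, 22.5 and 21.5 CPM in cKO libraries 1 to 3. Over all alternatives the log2 fold change ran from -0.028 to 0.82. The astrocyte marker sums given above, 1723 to 1822 CPM in controls and 1979 to 2757 in cKO, stand beside Etv5 too. Etv5 was at 52.3 CPM in astrocyte-like control cells. Most of these markers were not higher in the cKO mean. Also, cKO library 1, highest in Etv5, had the lowest marker sum of the cKO group. Immediate early genes summed to 4900 to 6266 CPM in control and 3965, 3295 and 5567 CPM in cKO NSC-like cells, with 4 of 15 higher in the cKO mean and a median log2 fold change of -0.43. The part of either in the Etv5 values was not tested.

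The groups overlapped for the other 8 genes in NSC-like cells. Fgfr1, Fgfr2 and Fgfr3 had log2 fold changes of 0.17 ± 0.14, -0.04 ± 0.15 and 0.10 ± 0.15 (SE), from 1244 to 2498 UMIs per gene and group. The receptors had the smallest standard errors of the set there. Fgf2 (0.11 ± 0.26), Spry2 (0.17 ± 0.34), Spry4 (0.21 ± 0.37) and Etv4 (-0.28 ± 0.42) were less precise. Spry1 (-0.85 ± 0.56) rested on 48 and 21 UMIs.

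In astrocyte-like cells, where edgeR called 1.3% of 12081 genes, 0 of the 10 were called. Fgfr3, whose level peaks there, was 452, 408 and 355 CPM in controls and 435, 327 and 341 CPM in cKO (log2 fold change -0.14 ± 0.19 SE). Fgf1 was 63.6, 85.4 and 91.1 against 74.3, 87.8 and 88.1 CPM (0.05 ± 0.17). Both pairs of groups overlapped.

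Groups that did not overlap in astrocyte-like cells were found for 2 of 10 genes, Spry1 and Spry4, against 15.3% of all genes tested there. Spry1 was at 0.80, 0.43 and 0.26 CPM in controls and 2.35, 6.15 and 2.44 CPM in cKO, which is 4 UMIs against 19. Its log2 fold change was 2.68 ± 0.877 (SE), with an adjusted p of 0.199 in edgeR's test. Spry1 passed the filter on low counts there only through the cKO group, where it was high. Its fold change, p and lack of overlap are thus no separate support for a change. In the same cells endothelial markers, of a type with high Spry1, summed to 9.26 to 26.4 CPM in controls and 25.9 to 52.6 CPM in cKO, with 3 of 6 higher. Mural markers summed to 120 to 210 and 116 to 149 CPM (4 of 7 higher). OPC markers, of the type second in Spry1, went the other way, at 73.1 to 108 and 43.9 to 79.0 CPM (1 of 7 higher). The part of these markers was not tested. Spry4 was at 13.7, 14.1 and 10.3 against 15.5, 19.3 and 14.3 CPM (log2 fold change 0.35 ± 0.26 SE). Without cKO library 1 the log2 fold changes were 2.89 for Spry1 and 0.37 for Spry4, and without control library 3 they were 2.30 and 0.20. With the gate on single cells they were 1.31 and 0.13, and all of these were uncalled.

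The change in each type was then set against the change in NSC-like cells in 1 fit of both, with a term per library. Of 100 such differences over 10 types, 2 passed the threshold (0.594% of 146778 over all genes), both against astrocyte-like cells, where 1.72% of genes passed. For Fgf1 the change in astrocyte-like cells was lower than in NSC-like cells by 0.75 ± 0.16 on the log2 scale (adjusted p = 0.0155 in edgeR's test). For Spry1 it was higher by 3.42 ± 0.90 (adjusted p = 0.0434), at the low counts given above. Since Spry1 passed the filter within astrocyte-like cells only through the cKO group, this call is no separate support for a change. Both calls were lost with at most 5% mitochondrial counts, with the gate, or without any 1 of control libraries 2 and 3 and cKO libraries 2 and 3. Without control library 1, Fgf1 alone passed. Without cKO library 1, 15 passed, where 6.35% of all genes and types did, and without a filter on low counts 6 passed (2.38%).

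**Figure D3:**
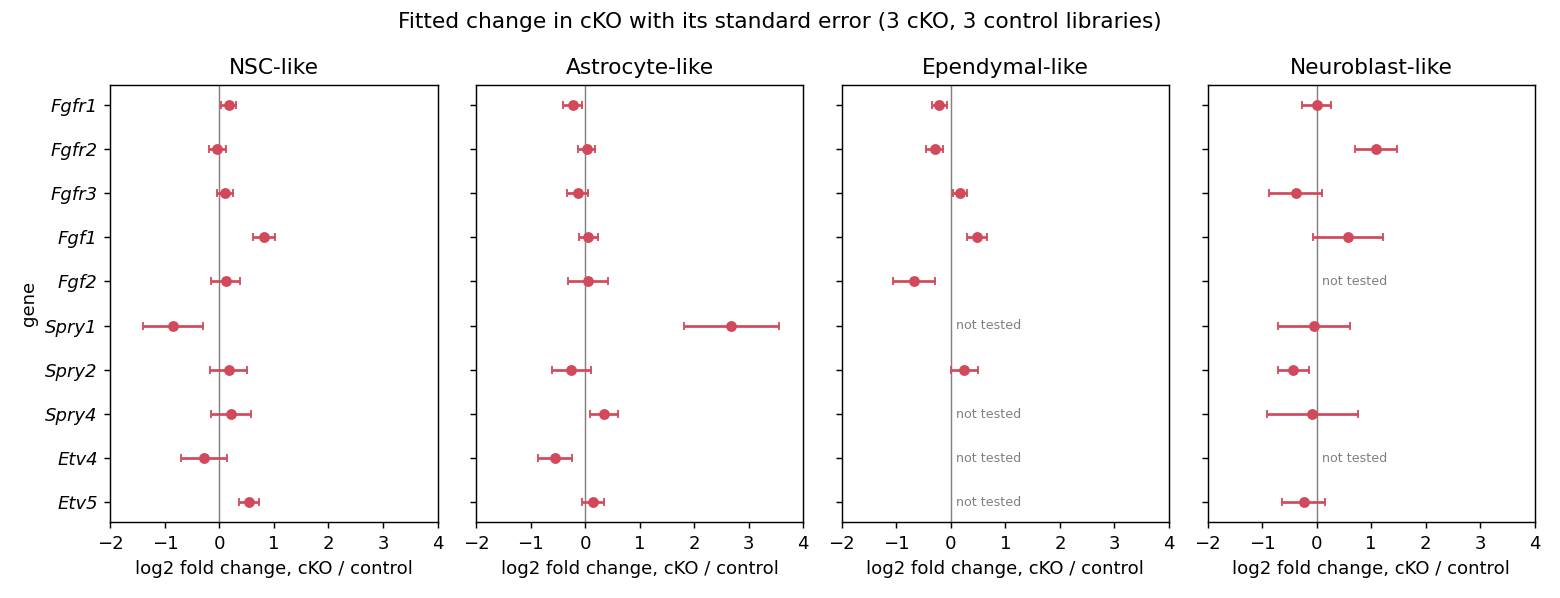
Fitted log2 fold change of each gene in cKO against control with its standard error, from 3 cKO and 3 control libraries, in 4 cell types; genes with too few counts are marked as not tested. Among the points farther from 0 are Fgf1 (0.82), Etv5 (0.55) and Spry1 (-0.85) in NSC-like cells. Others are Spry1 (2.68, from 23 UMIs in all) in astrocyte-like and Fgfr2 (1.09) in neuroblast-like cells. None of these passed the threshold.

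In ependymal-like cells, the ciliated lining that radial glia also give rise to, 4 of the 6 genes tested had groups that did not overlap, against 14.7% of 13915 genes. Fgfr1 was 127, 136 and 136 CPM in controls and 126, 117 and 101 CPM in cKO (log2 fold change -0.21 ± 0.14 SE). Fgfr2 was 52.4, 59.0 and 49.4 against 45.5, 47.7 and 37.0 CPM (-0.29 ± 0.15). Both receptors were thus lower in all cKO libraries, by little.

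Fgfr3 and Fgf1 lay on the other side in the same cells. Fgfr3 was 55.0, 50.0 and 55.0 CPM in controls and 61.2, 58.1 and 61.4 CPM in cKO (log2 fold change 0.17 ± 0.13 SE). Fgf1 was 18.6, 20.0 and 18.2 against 22.9, 25.7 and 29.7 CPM (0.49 ± 0.18, adjusted p = 0.444 in edgeR's test). None of these 4 passed. With at most 5% mitochondrial counts Fgf1 was 24.3, 24.3 and 19.4 CPM in controls and 15.6, 17.97 and 32.9 CPM in cKO, from 8 to 64 UMIs per library, so that the groups overlapped and cKO libraries 1 and 2 lay below every control (log2 fold change 0.13). There the log2 fold changes were -0.40 for Fgfr1, -0.61 for Fgfr2 and 0.41 for Fgfr3, all uncalled. With the gate they were -0.19 for Fgfr2 and 0.10 for Fgfr3, uncalled too. Fgf1 with the gate was 18.5, 21.4 and 18.7 CPM in controls and 23.1, 27.2 and 29.2 CPM in cKO libraries 1 to 3. The groups thus did not overlap there, and Fgf1 was again uncalled. Without cKO library 1 the log2 fold changes were -0.28 for Fgfr1, -0.34 for Fgfr2, 0.16 for Fgfr3 and 0.59 for Fgf1, still uncalled. Without cKO library 3 those of Fgfr1 and Fgfr2 were -0.13 and -0.18. Several marker sums moved in the same ependymal-like cells. Oligodendrocyte markers, of the type richest in Fgfr2, were at 1154 to 1808 CPM in controls and 571 to 1271 CPM in cKO, with 0 of 7 higher in the cKO mean. Mural markers, of a type high in Fgf1, were at 372 to 629 and 708 to 942 CPM (6 of 7 higher), and astrocyte markers, of the type highest in Fgfr3, at 857 to 1104 and 1092 to 1164 CPM (7 of 8 higher). Choroid plexus markers were at 532 to 2308 and 153 to 636 CPM (0 of 4 higher) and immediate early genes at 6848 to 7853 and 3127 to 6440 CPM (0 of 15 higher). Their part in the values of the 4 genes was not tested.

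In neuroblast-like cells Fgfr2 split the cKO libraries. Control libraries 1 to 3 were at 23.1, 21.4 and 21.4 CPM, and cKO library 1, at 20.99, lay just below them. cKO libraries 2 and 3 were at 63.6 and 57.5 CPM. The log2 fold change of 1.09 ± 0.38 (SE) had an adjusted p of 0.530 in edgeR's test. Without cKO library 1 it was 1.45 (adjusted p = 3.27e-04, 2.68% of genes called), and without a filter on low counts 1.06 (adjusted p = 4.78e-05, 1.19%).

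Other transcripts differed between the same libraries in neuroblast-like cells. Neuron markers summed to 1978 to 2246 CPM in controls and to 1731, 2788 and 2967 CPM in cKO libraries 1 to 3, with 7 of 8 higher in the cKO mean, and as for Fgfr2 library 1 lay below the controls and libraries 2 and 3 above them. Neuron-like control cells themselves held 5.73 CPM of Fgfr2, less than the neuroblast-like cells. Immediate early genes, which answer to dissociation, ran the other way, at 3025 to 3357 CPM in controls and 3209, 2030 and 2102 CPM in cKO libraries 1 to 3, with 3 of 15 higher. OPC markers summed to 162 to 257 CPM in controls and 199, 340 and 282 CPM in cKO libraries, with 2 of 7 higher. Oligodendrocyte markers, of the type richest in Fgfr2, summed to 1107 to 1644 CPM in controls, and cKO libraries 1 and 2 lay below them (832 and 839 CPM) and library 3 above (1903 CPM), with 2 of 7 higher. The part of any of these in the Fgfr2 values was not tested.

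The makeup of the neuroblast-like class differed too. At a finer clustering (resolution 0.3), 1584 shallow cells with 5 of 7 neuroblast markers formed a cluster apart from the neuroblast-like one. It held 180, 41 and 229 cells of control libraries 1 to 3 beside 1279, 578 and 1189 in the neuroblast-like cluster, and 141 beside 1019 in cKO library 1. In cKO libraries 2 and 3 and the DKO library, those with more Fgfr2, it held 104 beside 246, 367 beside 741 and 522 beside 1280. In the neuroblast-like cluster of that resolution, without those cells, the log2 fold change of Fgfr2 was 0.85 (adjusted p = 0.728 in edgeR's test).

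**Figure D4:**
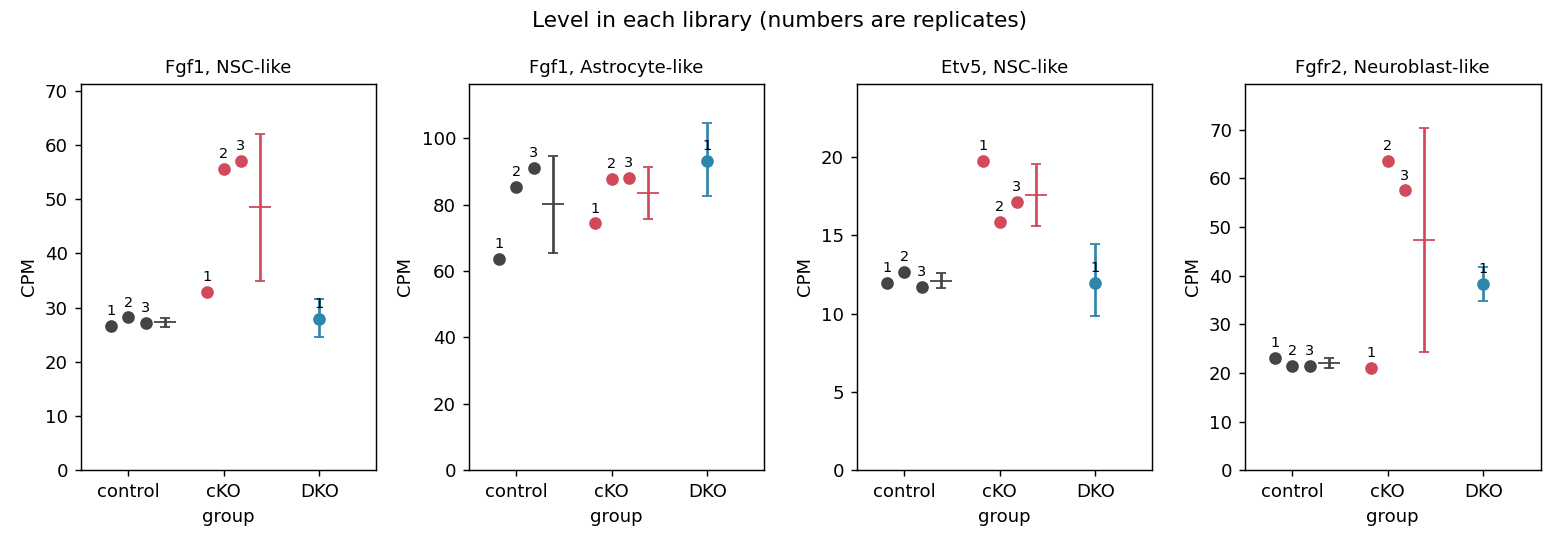
Level in CPM of Fgf1 in NSC-like and astrocyte-like cells, Etv5 in NSC-like cells and Fgfr2 in neuroblast-like cells, by group; points are libraries with their replicate number, bars beside them are mean ± SD (n = 3), and the bar on the DKO point is the exact 95% Poisson interval of its counts. cKO library 1 lies near the controls for Fgf1 in NSC-like cells (32.8 CPM) and Fgfr2 (20.99 CPM) but not for Etv5 (19.8 CPM).

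The remaining pairs with an unadjusted p under 0.05 were scattered over 4 types. In mural-like cells, which do not stem from radial glia, Fgfr2 was 13.6, 13.7 and 13.4 CPM in controls and 1.43, 2.45 and 8.80 CPM in cKO, from 35 and 11 UMIs (log2 fold change -1.43 ± 0.633 SE, adjusted p = 0.998 in edgeR's test). Fgfr2 passed the filter on low counts there only through the control group, where it was high. Its fold change and lack of overlap are thus no separate support for a change. The log2 fold change of Fgfr2 was -1.01 without cKO library 1 and -2.79 without cKO library 3. Fgfr2 was the only one of 9 genes tested there without overlap, against 8.95% of all genes. Oligodendrocyte markers, whose type is richest in Fgfr2, summed to 1078 to 2536 CPM in control and 546 to 1458 CPM in cKO mural-like cells, with 0 of 7 higher in the cKO mean; their part was not tested.

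In neuron-like cells Etv5 was 36.2, 26.5 and 25.2 CPM in controls and 53.7, 83.3 and 34.7 CPM in cKO, with overlap (log2 fold change 0.94 ± 0.30 SE, adjusted p = 1.0). Immediate early genes summed to 2274 to 2998 CPM there in controls and 3263, 4520 and 2254 CPM in cKO libraries 1 to 3, the order of Etv5 within the cKO group; their part was not tested. The log2 fold change of Etv5 was 0.97 without cKO library 1 and 0.59 without cKO library 2.

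In TAP-like cells Spry1 was 1.47, 2.89 and 1.40 against 2.23, 5.78 and 4.999 CPM (log2 fold change 1.13 ± 0.43 SE, adjusted p = 0.626), with overlap, and without cKO library 1 the log2 fold change was 1.49 (adjusted p = 0.0971). In the same cells NSC markers summed to 666 to 873 CPM in controls and 993 to 1842 CPM in cKO, without overlap and with 5 of 9 higher in the cKO mean. Microglia markers, of a type with more Spry1, were at 19.01 to 36.4 CPM in controls and 34.6, 14.7 and 61.6 CPM in cKO libraries 1 to 3, with 7 of 7 higher. Of the types with most Spry1, endothelial markers were at 21.9 to 40.1 and 14.6 to 24.6 CPM (0 of 6 higher), OPC markers at 110.0 to 134 and 97.8 to 112 CPM (3 of 7 higher) and mural markers at 4.95 to 33.3 and 12.6 to 31.3 CPM (5 of 7 higher). The part of these was not tested.

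In OPC-like cells Etv4 was 29.3, 46.2 and 24.8 against 20.0, 22.1 and 25.6 CPM (log2 fold change -0.52 ± 0.24 SE, adjusted p = 0.951), with overlap. It was -0.43 without cKO library 1 and -0.24 without control library 2, and -0.31 at resolution 0.3, where the OPC-like cluster held 901 cells in place of 1572. In the OPC-like cells immediate early genes summed to 2220 to 2897 CPM in controls and 1650 to 2311 CPM in cKO (2 of 15 higher, median log2 fold change -0.29), and neuron markers to 483 to 515 and 192 to 452 CPM (0 of 8 higher, no overlap). Their part was not tested. The adjusted p-values are those of edgeR's test.

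For each gene, the sign of the change varied over cell types. Fgfr1 was positive in 5 of 10 types tested, with log2 fold changes of -0.28 to 0.36, and Fgfr3 in 5 of 10 (-0.38 to 0.56). Spry2 was positive in 6 of 11 (-0.43 to 0.40) and Spry4 in 4 of 9 (-0.53 to 0.35). Fgf1 was positive in 9 of 10, at -0.00086 in TAP-like cells and 0.05 to 0.82 elsewhere. The same libraries enter every type, so these counts are not independent.

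Beyond the 10 genes, 73 others of the pathway were listed: 20 other genes of the FGF family, 16 receptors and co-receptors, 22 relay proteins between receptor and ERK, and 15 feedback or ERK target genes. In all, 535 pairs with a cell type were tested and 0 were called in edgeR's test, with 37 (6.92%) at an unadjusted p under 0.05 against 6.16% of all genes. By list these were 5 of 55 for FGF family genes, 15 of 111 for receptors and co-receptors, 5 of 241 for relay proteins and 12 of 128 for feedback and target genes. In NSC-like cells the medians of the log2 fold changes were -0.62 over 6 FGF family genes, 0.05 over 12 receptors and co-receptors, 0.01 over 22 relay proteins and 0.11 over 13 feedback and target genes, against -0.01 over all genes. Those 6 were the secreted Fgf7 and Fgf18 and the intracellular homologous factors Fgf11, Fgf12, Fgf13 and Fgf14, which do not act as ligands of the receptors and are known from neurons. Neuroblast markers summed to 244 to 400 CPM in control and 106 to 236 CPM in cKO NSC-like cells, without overlap and with 0 of 7 higher in the cKO mean, while neuron markers overlapped at 691 to 906 and 688 to 1024 CPM (6 of 8 higher); their part was not tested. Over all 11 types, calls among the 73 genes numbered 7 with DESeq2 (0.752% of all pairs called), 12 without a filter on low counts (0.875%), 5 with the replicate block (1.05%), 1 with the gate (0.199%) and 17 without cKO library 1 (2.29%).

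The following genes of these lists were singled out after their values were seen. Ier3, an ERK target, was 5.21, 6.84 and 4.68 CPM in control and 9.21, 16.6 and 21.6 CPM in cKO NSC-like cells, with an adjusted p of 0.0603 in edgeR's test. Fgfbp3, a carrier that releases FGFs from the matrix, was 92.2, 89.6 and 96.6 against 117, 162 and 181 CPM there (adjusted p = 0.0930). In both, as for Fgf1, cKO library 1 was the nearest to the controls. Myc was 2.54, 3.37 and 2.21 against 4.64, 12.6 and 10.0 CPM in TAP-like cells (adjusted p = 0.325). Fgf12 was 7.89, 7.79 and 12.8 against 13.9, 38.2 and 47.9 CPM in neuroblast-like cells (adjusted p = 0.483). These 4 pairs were each called with DESeq2, without the filter, with the replicate block and without cKO library 1, and not in the fit reported here. In ependymal-like cells Ier3 went the other way, at 32.8, 43.0 and 24.7 CPM in control and 27.1, 6.11 and 11.7 CPM in cKO (adjusted p = 0.632), and there it was called without the filter (log2 fold change -0.98) and without cKO library 1 (-1.69). Further higher values were called under some settings only. In NSC-like cells these were Flrt3 (1.16 with DESeq2, 1.12 without the filter, 1.31 without cKO library 1) and Sdc4 (0.57 with DESeq2, 0.70 without cKO library 1). Gpc4 (0.78), Myc (1.28) and Fgf10 (5.04) were called in ependymal-like cells without the filter. Ier3 was called in astrocyte-like cells with the gate (1.79). Without cKO library 1, Map2k1 in NSC-like (0.92), Gpc4 in ependymal-like (1.03) and Fgf14 in neuroblast-like cells (1.33) were called. The adjusted p-values are from edgeR's quasi-likelihood test.

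Other list genes with lower cKO values were also called under some settings only, and were likewise chosen after their values were seen. Phlda1, an ERK target, was 32.4, 51.2 and 32.0 CPM in control and 29.3, 16.97 and 17.1 CPM in cKO NSC-like cells (adjusted p = 0.1804 in edgeR's test), and was called without the filter (log2 fold change -0.85) and without cKO library 1 (-1.16). Fgfrl1, a receptor without a kinase domain, was 93.0, 93.1 and 72.1 against 74.3, 47.4 and 49.1 CPM in astrocyte-like cells (adjusted p = 0.213), and was called with the replicate block (-0.59) and without cKO library 1 (-0.82). Ccnd1 (cyclin D1) was 57.5, 55.9 and 53.4 against 52.6, 13.4 and 22.2 CPM in TAP-like cells (adjusted p = 0.797), and was called without cKO library 1 (-1.62). Kl (Klotho), a co-receptor of hormone-like FGFs, was 9.81, 4.001 and 1.88 against 1.12, 0 and 0 CPM in ependymal-like cells, from 56 and 4 UMIs (adjusted p = 0.305), and was called with DESeq2 (-3.61) and without the filter (-3.46). Kl is also 1 of the 4 choroid plexus markers, whose sums in these cells are given above; their part was not tested. Fgf13 in NSC-like cells (-1.30) and Dusp6 in neuroblast-like cells (-1.26) were called lower without cKO library 1 alone. Dusp4, of the same list as Dusp6, went the other way. It was called higher in neuroblast-like cells without cKO library 1 (0.80). In TAP-like cells it was called higher without the filter (1.04) and without cKO library 1 (1.39).

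The DKO library has no replicate, so its values are given without a test and with exact 95% Poisson intervals that cover counting error only. For Fgf1 in NSC-like cells it stood at 28.0 CPM (24.7 to 31.6), within the range of the controls and below all 3 cKO libraries. For Etv5 in NSC-like cells it was 11.99 CPM (9.86 to 14.4), likewise at the level of the controls. For Fgfr2 in neuroblast-like cells it was 38.2 CPM (34.9 to 41.9), between the controls with cKO library 1 and cKO libraries 2 and 3. Ier3 in NSC-like cells, at 22.5 CPM, was instead at the level of cKO library 3.

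In 7 of the 90 tested pairs the interval of the DKO library lay outside the values of all 6 other libraries (5.88% of 139515 pairs over all genes), below them in 6 (2.2%). Fgfr3 was below in both astroglial types, at 283 CPM (264 to 302) in astrocyte-like cells, where the others were at 327 to 452, and at 69.0 CPM (63.8 to 74.6) in NSC-like cells, where the others were at 95.3 to 124. Spry1 was below in endothelial-like (23.4 CPM, 18.6 to 29.0, others 51.9 to 85.5) and oligodendrocyte-like cells (6.89 CPM). Fgf1 (61.7 CPM) and Etv5 (1.71 CPM) were below in oligodendrocyte-like cells, and Spry4 was above in neuron-like cells (7.08 CPM from 22 UMIs). There Spry4 was at most 2.48 CPM in control and 2.72 CPM in cKO libraries. It passed the filter on low counts only through the DKO library, where it was high. Its place among the 7 is thus no separate support for a difference. With 1 library, these differences and the difference between any pair of libraries cannot be told apart.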

How the data were processed

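The authors deposited raw UMI counts per gene and barcode, made with Cell Ranger on 10x Genomics 3′ libraries and mm10. Per the file headers, the 4 control and cKO libraries numbered 1 or 2 carry version 6.0.1, and the remaining 3 carry 6.1.1, which the submitters' processing notes name. The deposited barcode and feature lists name cells and genes, and gene positions are those of GENCODE release M21. The 10 genes, the lists and the tests were chosen with earlier results of these data known.

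Kept cells were integrated in Seurat 5.3.0 (R 4.3.3) on 1991 variable features, without the genes of the pathway, 30 principal components and a resolution of 0.15. The 11 named clusters each carried at least 3 markers of a type, at least 1 of them among the 10 leading genes. Left unnamed were a shallow cluster with haemoglobin, NSC and astrocyte genes, one with fibroblast genes mostly from control library 2, Lhx6 cells with 5 of 8 neuron markers but none among the leading genes, cells with all mural and all endothelial markers, and 82 cells with T cell and immunoglobulin genes. Scrublet in scanpy 1.11.5 marked 1043 cells (2.41%) as doublets, which were kept in the analysis as reported and left out in an alternative. Its automatic threshold failed in control library 1, and the median threshold of the others was used.

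Counts were summed per library and type (at least 10 cells; fewest 47, microglia-like in cKO library 2) and tested in edgeR 4.0.16 (expression filter, TMM, robust quasi-likelihood test) in 1 fit of 7 libraries and 3 groups. Likeness used log2(mean CPM + 1). The step was tested on simulated data. Replicate libraries were compared, and none was a copy of another (chi-square of gene totals per degree of freedom of 58.2 to 214).

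By rule the text names the 10 genes, list genes called in a type (there were 0), and the 3 genes most like each of the 10. Other genes fall outside it and were chosen after their values were seen. They are Ier3, Fgfbp3, Myc, Fgf12, Phlda1, Fgfrl1, Ccnd1, Kl, Fgf13, Dusp6, Dusp4, Flrt3, Sdc4, Map2k1, Gpc4, Fgf10 and, for its overlap with Fgf2, Nudt6. Fgf7, Fgf11, Fgf14 and Fgf18, named as the rest of the FGF family genes tested in NSC-like cells, fall outside it too. Other settings tried were a test in DESeq2 1.42.0, low counts unfiltered, a replicate block (without the DKO library), Cell Ranger version as a block, each library left out, no DKO library, at most 5% mitochondrial counts, no doublets, a gate on single cells, resolution 0.3, and NSC-like and astrocyte-like cells summed; joined mural and neuron clusters were added after seeing the data.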

Additional observations from a re-analysis of the deposited data

Results flagged for a closer look

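The change in Fgf1 between cKO and control differed between astrocyte-like and NSC-like cells by a test of the difference itself, being lower in astrocyte-like cells by 0.75 on the log2 scale (a difference of -0.75 ± 0.16 SE, adjusted p = 0.0155 in edgeR's quasi-likelihood test over 13640 genes). NSC-like cells had a fitted log2 fold change of 0.82 and astrocyte-like cells one of 0.05, and neither passed the threshold within its type. The difference in Fgf1 stayed called without a filter on low counts, without control library 1 and without cKO library 1. It was no longer called with the stricter mitochondrial limit, with the gate, or without any other single control or cKO library. Within Cell Ranger versions, the mean log2(CPM + 1) of Fgf1 in NSC-like cells was higher in cKO by 0.63 for version 6.0.1 (2 libraries against 2) and by 1.04 for version 6.1.1 (1 against 1).

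The change in Spry1 differed between the same types in the opposite direction, by 3.42 ± 0.90 on the log2 scale (adjusted p = 0.0434). It rests on 4 UMIs in control and 19 in cKO astrocyte-like cells, and on 48 and 21 in NSC-like cells, where the fitted log2 fold changes were 2.68 and -0.85. Within astrocyte-like cells Spry1 passed the filter on low counts only through the cKO group, where it was high. The difference is thus no separate support for a change in Spry1. The call held without a filter on low counts and without cKO library 1. The call was lost with the stricter mitochondrial limit, with the gate, and without any other single control or cKO library.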

How the results depend on the processing

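The shares of all genes called under these settings stand in the text above. With no member called over all cell types, DESeq2 called 1 (Fgf1 in NSC-like cells), no filter on low counts 2 (Fgf1, and Fgfr2 in neuroblast-like cells) and the replicate block 1 (Fgf1). Leaving out 1 library gave 0 to 2, with 2 only without cKO library 1. The 73 other pathway genes gave 7 calls with DESeq2, 12 without the filter, 5 with the replicate block, 1 with the gate and 0 to 17 with 1 library left out, again with 17 without cKO library 1. The replicate block changed no other call of a member. The labels tie equal replicate numbers to nothing shared, but same-numbered control and cKO libraries share a Cell Ranger version. As for pairing, same-numbered libraries deviated together in all 3 pairs (correlations over 0.1) in endothelial-like (0.19, 0.13, 0.39) and oligodendrocyte-like cells (0.31, 0.16, 0.45). In the 9 other types pair 2 was under 0.1. Pair 3 was over 0.1 in every type, and pair 1 in every type but neuron-like (0.023). In NSC-like cells the 3 pairs had 0.25, 0.0014 and 0.36. The 2 differences between NSC-like cells and another type became 6 without the filter, 0 with at most 5% mitochondrial counts, 0 with the gate, and 0 to 15 with 1 library left out; the cause was not tested. With the gate, control levels were 129 CPM for Fgfr1 and 303 CPM for Fgfr3 in astrocyte-like cells, and 186 CPM for Fgfr2 and 70.4 CPM for Fgf1 in oligodendrocyte-like cells, each lower by more than 1 SD.

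Of 190 refits of the 13 followed fold changes, 183 kept direction and side of the threshold, 6 became called and 1 changed sign: Etv5 in NSC-like cells, at -0.028 with at most 5% mitochondrial counts. Depth limits the rarer members. Fgf2, Spry1, Spry4 and Etv4 had under 100 UMIs per group in several types, and in cKO library 2 the sums covered 47 to 353 cells per type.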
